A study of Mus musculus with 6 samples.

Results

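The insulin-like growth factor axis was described here by 10 genes: the ligands Igf1 and Igf2, the receptors Igf1r and Igf2r, and the binding proteins Igfbp2, Igfbp3, Igfbp4, Igfbp5, Igfbp6 and Igfbp7. They were chosen by symbol, not by level, from 22180 genes, and each had 1 probe set annotated to its symbol alone. The cells were MC3T3-E1, a pre-osteoblast line from mouse calvaria, and in both groups they were differentiated after confluency for 14 days with ascorbic acid (50 µg/ml) and β-glycerophosphate (10 mM). In the 3 NU7441 samples the medium also held 1 µM of that compound, which inhibits DNA-PKcs, the catalytic subunit of a DNA-activated protein kinase. The 3 DMSO samples held the vehicle alone. All 6 samples were of the same line and whole cells, and the replicate numbers 1 to 3 occur in both groups. The labels name no separate cultures, so the p-values refer to the spread among these samples alone, and that spread may be technical.

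IGF1 and IGF2 are secreted growth factors that osteoblasts make themselves and store in bone matrix. Both act through the receptor tyrosine kinase encoded by Igf1r, which signals through the insulin receptor substrates to PI3-kinase, AKT and mTOR. The receptor encoded by Igf2r does not signal in this way but carries IGF2 to lysosomes, and the secreted binding proteins hold the ligands in the medium or matrix until proteases release them.

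The array values are log2 signals, and levels of different genes cannot be ranked, since each probe set has its own response. Array medians lay between 6.38 and 6.42. Of the osteoblast markers 8 were measured, and 7 were above the array median on all 6 arrays, the list's median being between 9.55 and 10.89. Runx2 and Spp1 had no probe set of their own and were not analysed here. Of the endothelial markers 0 of 7, and of the adipocyte markers 0 of 6, were above the array median on all arrays. Of the macrophage and haematopoietic markers 3 of 8 were (Cd68, Lyz2 and Cd14), while Ptprc lay below the lower quartile on every array. Of the chondrocyte markers 3 of 7 were above it, and of the skeletal muscle markers 6 of 7, with a list median between 6.72 and 7.07. The array median is taken over all probe sets, and the median over the 22180 genes was higher, 6.77 to 6.82. The skeletal muscle list lay near that level, so its count does not show that these genes were expressed. DMSO 2 was the extreme array in 2 state lists, with a cell cycle median of -0.45 and an ATF4 response median of 0.66, after each gene was centred on its mean. It was not alone: the cell cycle median was also low in NU7441 2 (-0.23). The ATF4 response median was also high in DMSO 3 (0.38), and it was -0.44 in DMSO 1. The part of these differences in the results was not tested.

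5 promoter windows are shown here because they belong to Igf2, the gene whose groups lay apart, and to Igfbp5, Igfbp4 and Igf1, which like Igf2 and Igfbp3 were lowest of their group on both arrays numbered 3. Of the Igf2 windows only those that held a motif named below are printed. The Igfbp3 window, which held none of them, is left out. All 10 genes matched the RefSeq table (build GRCm38.p6), in 14 windows of 250 bases before to 50 bases after a start site. Capitals mark the TATA box TATAAA, the GC box GGGCGG, the hypoxia response core ACGTG and the AP-1 site TGANTCA, searched on both strands, and no printed match overlaps another.
Igf2, chr7:142657447-142657746, minus strand: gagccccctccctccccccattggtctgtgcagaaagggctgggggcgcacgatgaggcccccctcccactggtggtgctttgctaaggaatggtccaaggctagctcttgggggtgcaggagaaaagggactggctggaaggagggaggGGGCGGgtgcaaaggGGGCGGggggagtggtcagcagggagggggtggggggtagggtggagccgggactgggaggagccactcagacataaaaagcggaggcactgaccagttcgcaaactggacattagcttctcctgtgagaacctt
Igf2, chr7:142658755-142659054, minus strand: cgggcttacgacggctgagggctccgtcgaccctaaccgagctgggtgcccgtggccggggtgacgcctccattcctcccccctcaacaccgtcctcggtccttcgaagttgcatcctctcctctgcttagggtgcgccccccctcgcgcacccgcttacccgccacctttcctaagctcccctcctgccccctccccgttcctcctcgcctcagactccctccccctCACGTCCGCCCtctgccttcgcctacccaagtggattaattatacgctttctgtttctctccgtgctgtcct
Igfbp5, chr1:72874816-72875115, minus strand: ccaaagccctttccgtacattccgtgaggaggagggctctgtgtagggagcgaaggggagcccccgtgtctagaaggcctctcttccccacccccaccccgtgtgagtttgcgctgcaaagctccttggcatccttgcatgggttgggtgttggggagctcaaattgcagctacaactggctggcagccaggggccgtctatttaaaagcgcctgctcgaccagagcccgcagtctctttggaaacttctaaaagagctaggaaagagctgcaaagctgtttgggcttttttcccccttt
Igfbp4, chr11:99040994-99041293, plus strand: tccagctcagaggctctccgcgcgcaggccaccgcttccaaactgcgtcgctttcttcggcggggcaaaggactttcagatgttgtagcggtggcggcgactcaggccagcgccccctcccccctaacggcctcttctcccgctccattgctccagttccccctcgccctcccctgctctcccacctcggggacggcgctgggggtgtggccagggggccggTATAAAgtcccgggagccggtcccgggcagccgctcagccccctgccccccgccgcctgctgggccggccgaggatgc
Igf1, chr10:87860861-87861160, plus strand: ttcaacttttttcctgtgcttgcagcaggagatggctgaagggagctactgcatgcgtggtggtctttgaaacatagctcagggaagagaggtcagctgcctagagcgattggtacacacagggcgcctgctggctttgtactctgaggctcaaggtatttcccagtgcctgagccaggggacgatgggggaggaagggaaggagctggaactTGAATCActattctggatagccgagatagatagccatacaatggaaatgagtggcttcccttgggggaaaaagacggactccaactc

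Igf2 had 4 windows in the table, and the array does not say which start site was in use. The first printed window held 2 GC boxes. The second held 1 GC box and 1 hypoxia response core, side by side, and the other Igf2 windows held none of the 4 motifs. Igfbp4 held a TATA box at position -28 from the start site, Igf1 an AP-1 site at position -37, and Igfbp5 none of the 4. Over 32851 windows of this length 13.6% held TATAAA, 35.7% GGGCGG, 19.6% ACGTG and 7.81% TGANTCA.

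Setting NU7441 beside DMSO asks how transcripts of these differentiating cells differ with 1 µM of the compound. The arrays do not measure DNA-PKcs activity. Of the ligands, Igf2 was the gene of the axis whose groups lay apart. Its signal was 9.55, 9.50 and 9.29 in NU7441 1 to 3, against 8.93, 9.15 and 8.72 in DMSO 1 to 3. Every NU7441 array was above every DMSO array, the lowest NU7441 value exceeding the highest DMSO value by 0.14. The log2 difference was 0.51 (SE 0.12, 95% interval 0.22 to 0.80), which is 1.43-fold (1.16 to 1.75). Within the same-numbered pairs it was 0.62, 0.35 and 0.57, so Igf2 was higher with NU7441 in 3 of 3.

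Some marker lists differed between the groups alongside Igf2, with 0 genes of each called by limma at an adjusted p under 0.05. Of all genes 51.3% were higher with NU7441. The osteoblast markers were higher in 8 of 8, with a median difference of 0.52. Col1a1 (0.04, SE 0.06), Col1a2 (0.04, SE 0.06) and Dmp1 (0.14, SE 0.61) differed by less than their SE. The Dmp1 value of DMSO 3, 11.08, was above all NU7441 values. The hypoxia genes were lower in 11 of 11, with a median difference of -0.40, though Ldha differed by only -0.04 (SE 0.07). Their centred medians were -0.21, -0.18 and -0.15 in NU7441 1 to 3, against 0.32, 0.10 and 0.12 in DMSO 1 to 3. The ATF4 response genes were lower in 10 of 10, with a median difference of -0.35, and DMSO 1 was the lowest array. The cell cycle genes were higher in 10 of 11, with a median difference of 0.10. All but Mcm5 (0.26, SE 0.25) and Rrm2 (0.30, SE 0.22) differed by less than their SE. The centred medians of the cell cycle list overlapped, at 0.05, -0.23 and 0.34 in NU7441 1 to 3, against 0.15, -0.45 and 0.20 in DMSO 1 to 3. The part of these differences in that of Igf2 was not tested.

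Igf2 did not pass the test over all genes. In limma its unadjusted p was 0.00425 and its adjusted p 0.643, and it ranked 140 by p among 22180 genes. With the replicate number as a block the adjusted p was 0.383 in limma. With the block, an intensity trend of the variance and a robust prior it was 0.0235 in limma (SE 0.06), a setting chosen with earlier results known, in which Igf2 was among 100 called genes (0.451% of all). Over all the alternatives the adjusted p of Igf2 in limma ran between 0.0235 and 0.912, and its difference between 0.41, without DMSO 3, and 0.62, without DMSO 2.

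Igf1, the ligand that growth hormone induces, did not show such a difference. Its signal was 11.07, 10.86 and 10.66 in NU7441 1 to 3, against 10.96, 10.95 and 10.56 in DMSO 1 to 3. The groups overlapped, and in each of them the array numbered 3 was the lowest. The difference was 0.05 (SE 0.14, 95% interval -0.29 to 0.38), with an adjusted p of 0.963 in limma. The difference of Igf2 from Igf1 in response was not tested.

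**Figure D1:**
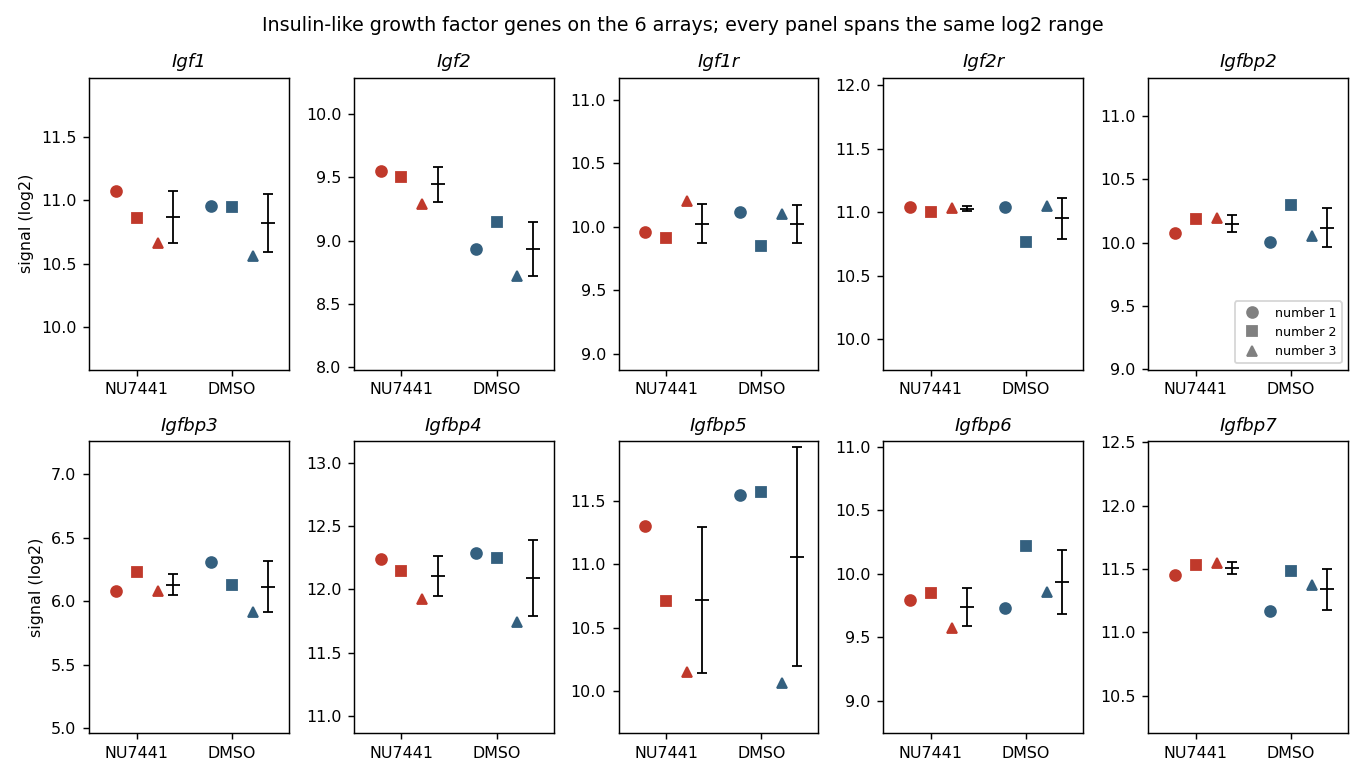
Log2 signal of the 10 genes on each array, with NU7441 left of DMSO, a marker shape for each replicate number, and the group mean with its SD (n = 3). The Igf2 values of NU7441, 9.29 to 9.55, all lie above those of DMSO, 8.72 to 9.15, while the groups overlap in the other 9 genes.

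The receptors lay close together in both groups. Igf1r, the signalling receptor of both ligands, was at 9.96, 9.91 and 10.20 in NU7441 1 to 3, against 10.11, 9.85 and 10.10 in DMSO 1 to 3. Its group means were 10.02 in NU7441 and 10.02 in DMSO, and the 95% interval of the difference was -0.26 to 0.26. Igf2r, the clearance receptor of IGF2, was at 11.05, 11.00 and 11.04 in NU7441 1 to 3, against 11.04, 10.77 and 11.05 in DMSO 1 to 3. Only DMSO 2 stood away from the other 5 arrays for Igf2r. The difference was 0.07 (SE 0.09), and without DMSO 2 it was -0.02.

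Igfbp5, the binding protein that attaches to bone matrix and is abundant there, varied most of the 10 genes. Its signal was 10.71 and 10.15 in NU7441 2 and 3, against 11.54, 11.57 and 10.06 in DMSO 1 to 3, and NU7441 1 differed from DMSO 1 by -0.24. The groups overlapped widely, and the highest array was 2.85-fold above the lowest. The SD within groups, 0.73, was larger than that of 99.9% of genes. The difference of -0.34 (SE 0.45) had a 95% interval of -1.41 to 0.73 and an adjusted p of 0.908 in limma. It was -0.84 without DMSO 3 and -0.05 without NU7441 3, so its size rests on single arrays. Without both arrays numbered 3 it was -0.55, with an adjusted p of 0.808 in limma. Igfbp5 was the only gene of the 10 whose interval reached past 2-fold: for the other 9 it lay inside 2-fold either way, as it did for 99.2% of all genes.

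Igfbp4, an inhibitory binding protein that the protease PAPP-A cleaves, was at 12.24, 12.15 and 11.93 in NU7441 1 to 3, against 12.29, 12.24 and 11.75 in DMSO 1 to 3. The groups overlapped, and the difference was 0.01 (SE 0.16). Igfbp6, which prefers IGF2 to IGF1, was at 9.80, 9.85 and 9.57 in NU7441 1 to 3, against 9.73, 10.22 and 9.86 in DMSO 1 to 3. Its highest value was that of DMSO 2. The difference was -0.19 (SE 0.14, adjusted p = 0.830 in limma), and without DMSO 2 it was -0.05.

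Igfbp7, a related protein that binds the ligands only weakly, was at 11.46, 11.53 and 11.55 in NU7441 1 to 3, against 11.17, 11.48 and 11.38 in DMSO 1 to 3. The groups overlapped by 0.03, since DMSO 2 exceeded NU7441 1. The difference was 0.17 (SE 0.09, 95% interval -0.05 to 0.39, adjusted p = 0.782 in limma), higher with NU7441 in 3 of 3 same-numbered pairs. It was 0.08 without DMSO 1 and 0.24 without DMSO 2. Igfbp2, a binding protein that can also contact integrins, was at 10.07, 10.18 and 10.19 in NU7441 1 to 3, against 10.00, 10.29 and 10.05 in DMSO 1 to 3. Its NU7441 values lay within the range of the DMSO values, and the difference was 0.03 (SE 0.09).

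Igfbp3, the main carrier of IGFs in blood, was below the array median on all 6 arrays. It was at 6.08, 6.23 and 6.08 in NU7441 1 to 3, against 6.31, 6.13 and 5.91 in DMSO 1 to 3. The difference of 0.02 (SE 0.11) lay well within the spread, and for so dim a probe set the interval may understate a change of the transcript.

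**Figure D2:**
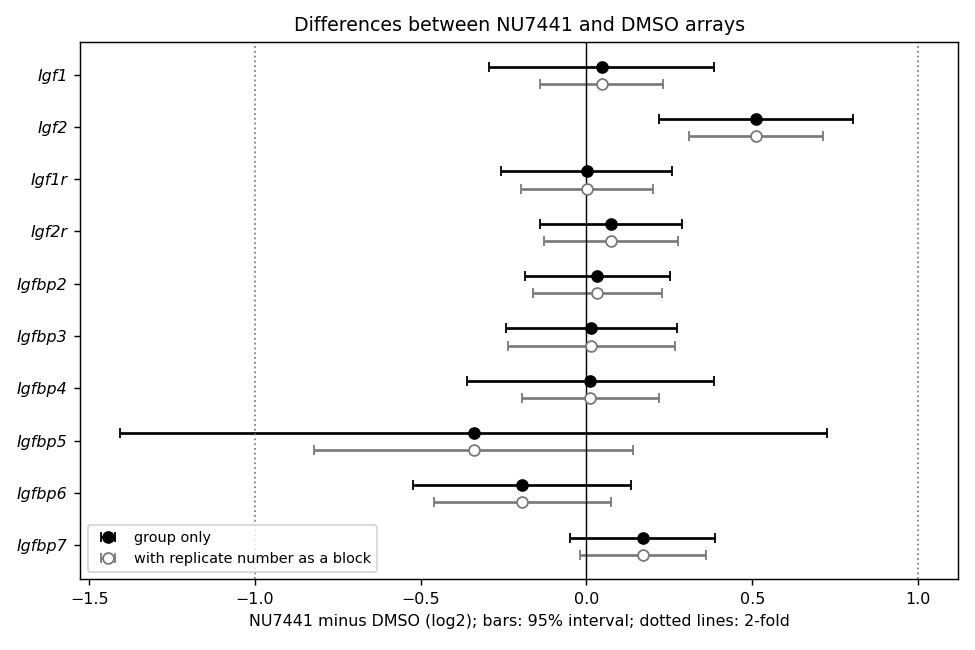
Log2 difference, NU7441 minus DMSO, for the 10 genes, with the 95% interval from limma with group as the only term (filled) and with the replicate number as a block (open). The interval of Igf2, 0.22 to 0.80, is the only one of the filled intervals that does not reach 0, and that of Igfbp5 is the widest.

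At an adjusted p under 0.05 limma called 0 of the 10 genes, as it called 0 of 22180 (0%). At an unadjusted p under 0.05 there was 1 gene, Igf2, of 10, where 6.79% of all genes had such a p. Groups that did not overlap were found in 1 of 10, against 12.8% of all genes, and that 1 had NU7441 above DMSO, as had 6.13% of all genes. In direction, 8 of 10 were higher and 2 lower with NU7441, where 51.3% of all genes were higher. The median difference was 0.02 over the 10 genes and 0.0036 over all genes. Counts near those shares say nothing particular about the axis, and several of the small differences turned their sign under the alternatives.

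Several genes of the axis moved with the replicate number. Of the 10, 5 were lowest of their group in both arrays numbered 3 (Igf1, Igf2, Igfbp3, Igfbp4 and Igfbp5), and 15% of all genes were. For Igfbp3 in NU7441 this rests on values that are equal when rounded, 6.08 and 6.08. For Igfbp5 the array numbered 3 differed from the mean of the others in its group by a log2 value of -0.86 in NU7441 and -1.50 in DMSO. For Igfbp4 the values were -0.26 in NU7441 and -0.52 in DMSO, for Igf1 -0.30 in NU7441 and -0.39 in DMSO, and for Igf2 -0.23 in NU7441 and -0.32 in DMSO. The receptors and Igfbp2, Igfbp6 and Igfbp7 were not lowest in both.

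On the arrays numbered 3 most osteoblast markers were high. Of 8 measured markers 6 were highest of their group in both arrays numbered 3, against 15.6% of all genes. The collagen genes Col1a1 and Col1a2 were not, and Col1a1 was lowest of its group in NU7441 3 (13.53, 13.51 and 13.50 in NU7441 1 to 3). Ibsp, bone sialoprotein, was at 12.02, 12.32 and 13.07 in NU7441 1 to 3, against 11.41, 11.78 and 12.67 in DMSO 1 to 3. After each gene was centred on its mean, the list's median was -0.03, 0.06 and 0.67 in NU7441 1 to 3, against -0.50, -0.47 and 0.18 in DMSO 1 to 3. Of 11 cell cycle genes 9 were highest in both as well. Fewer cells of a type and less RNA per cell cannot be told apart in such bulk samples, and what the arrays numbered 3 share is not given by the labels and was not tested.

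**Figure D3:**
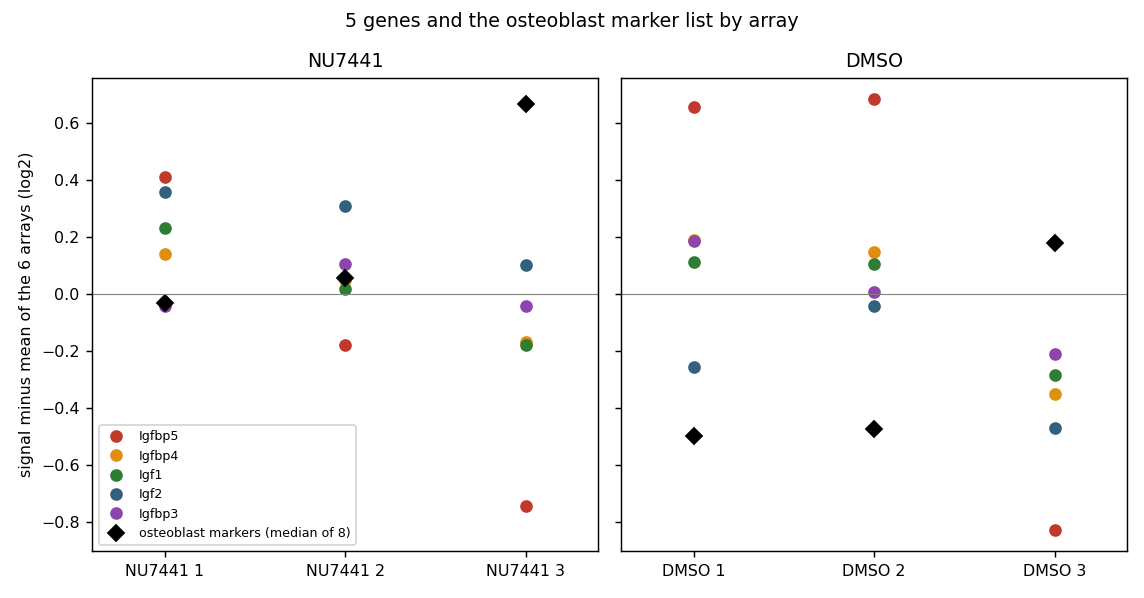
Signal of Igfbp5, Igfbp4, Igf1, Igf2 and Igfbp3 minus each gene's mean over the 6 arrays (log2), with the median of the 8 osteoblast markers as diamonds, NU7441 arrays left and DMSO arrays right. Igfbp5 lies at -0.74 in NU7441 3 and -0.83 in DMSO 3, where the marker median is 0.67 and 0.18.

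Likeness of pattern was taken as the root mean square difference of centred values over the 6 arrays, among 10440 other genes of at least median level. Only Igf2 and Igfbp5 varied enough for it, with an SD over the 6 arrays of at least 0.25. Nearest to Igf2 were Sult1a1, a sulfotransferase, at 0.086, Slpi, a secreted protease inhibitor, at 0.090, and Plagl1 at 0.11. Nearest to Igfbp5 were Dpep1, a membrane dipeptidase, at 0.15, Ppp1r14c, an inhibitor of a protein phosphatase, at 0.18, and Gfra1, a GDNF co-receptor, at 0.19. Dpep1 was at 10.39, 9.96 and 9.16 in NU7441 1 to 3, against 10.42, 10.45 and 9.32 in DMSO 1 to 3, so it too was lowest on the arrays numbered 3. This likeness rests on 6 arrays and is a description, with no test.

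The other genes of the pathway were taken from 7 lists, of which 105 of 117 genes were measured. With NU7441 53 of them were higher and 52 lower, and limma called 0 at an adjusted p under 0.05. At an unadjusted p under 0.05 there were 7, of which 4 were higher and 3 lower, where 3.49% of all genes were higher and 3.3% lower with such a p. Without NU7441 2 there were 4 such genes. With the replicate number as a block there were 17, where 9.37% of all genes had such a p. Groups lay apart in 9 of the 105 with NU7441 above DMSO and in 8 with NU7441 below, against 6.13% of all genes above and 6.64% below. At an adjusted p under 0.05 limma called 0 of the list genes it tested under each of the 16 alternatives, which was all 105 except with the filters on dim genes (100 and 81 tested). Some came close with the replicate block, an intensity trend and a robust prior, the setting that called Igf2. The adjusted p in limma was then 0.0516 for Socs2, 0.0558 for Dcn and 0.0664 for Deptor.

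In the imprinted gene network, to which Igf2 itself belongs, 11 of 13 measured genes were higher, where 51.3% of all genes were. Their median difference was 0.08. The stricter of the filters on dim genes kept 5 of the 13, with a median of 0.06. Zim1, at 4.29 to 4.43, lay below the lower quartile on every array. Meg3 (5.78 to 6.35) and Dlk1 (5.89 to 6.28) lay below the array median, so the count rests partly on dim probe sets. Plagl1, a zinc finger factor known to activate Igf2, was at 10.04, 9.98 and 9.79 in NU7441 1 to 3, against 9.60, 9.77 and 9.05 in DMSO 1 to 3. Its groups lay apart, as did those of 12.8% of all genes, but its lowest NU7441 value, 9.79, was barely above its highest DMSO value, 9.77. The difference was 0.47 (SE 0.18, adjusted p = 0.719 in limma). Plagl1 was also among the nearest to Igf2 in pattern over the same arrays, so these observations are not independent. Whether Plagl1 acts on Igf2 in these cells was not tested. Dcn, the proteoglycan decorin, differed by -0.29 (SE 0.09), Cdkn1c, a cell cycle inhibitor, by 0.15 (SE 0.08), and Meg3, a noncoding RNA, by 0.19 (SE 0.13). H19, the imprinted neighbour of Igf2, had no probe set of its own and was not analysed here.

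Downstream of the receptor, 10 of 16 substrates and adaptors were higher and 6 lower, with a median of 0.02, which was -0.00083 with median centring and 0.0069 to 0.032 when 1 array was left out. Gab1, a docking protein, differed by 0.18 (SE 0.07), Grb14 and Grb10, adaptors that dampen the receptor, by 0.22 (SE 0.11) and 0.10 (SE 0.06), and Irs1, a main substrate of the receptor, by 0.16 (SE 0.10). Of the PI3K, AKT, TSC and mTOR genes 10 of 24 were higher and 14 lower, with a median of -0.02, which turned to 0.0098 with quantile normalization and 0.0076 without DMSO 2 and was -0.04 without DMSO 3. Deptor, an inhibitor bound to mTOR, had the smallest p of all the lists. It was at 9.00, 9.07 and 9.13 in NU7441 1 to 3, against 8.61, 8.81 and 8.73 in DMSO 1 to 3. Its groups lay apart, with a difference of 0.35 (SE 0.08, adjusted p = 0.619 in limma). Eif4ebp1, a translation repressor under mTOR control, differed by -0.36 (SE 0.14), with overlapping groups. Rheb, the GTPase that activates mTOR, differed by -0.11 (SE 0.06), and Pik3ip1, an inhibitor of PI3-kinase, by 0.18 (SE 0.14).

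Of the FOXO factors and FOXO-regulated genes 7 of 17 were higher and 10 lower. Fbxo32, a ubiquitin ligase subunit, differed by -0.42 (SE 0.19), the repressor Bcl6 by -0.22 (SE 0.12), the transcription factor Klf15 by -0.16 (SE 0.11) and Foxo1 by 0.21 (SE 0.15). Of the growth hormone receptor pathway 5 of 8 were higher. Socs2, a feedback inhibitor of growth hormone signalling, was at 10.83, 10.66 and 10.68 in NU7441 1 to 3, against 11.20, 11.09 and 10.88 in DMSO 1 to 3. Its groups lay apart, and the difference was -0.33 (SE 0.10, adjusted p = 0.698 in limma). Its relative Socs3 differed by -0.17 (SE 0.08), the signal transducer Stat5a by 0.12 (SE 0.07) and the receptor gene Ghr by 0.16 (SE 0.10).

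Of the proteases that cleave the binding proteins and their inhibitors, 7 of 19 were higher and 12 lower, with a median of -0.04, which was -0.0097 without NU7441 3, -0.013 without DMSO 1, -0.065 without NU7441 1 and -0.078 without DMSO 2. Plau, the urokinase gene, differed by -0.47 (SE 0.22), the serine protease Htra3 by -0.32 (SE 0.16), the metalloproteinase Adam9 by -0.14 (SE 0.07) and the collagenolytic cathepsin Ctsk by -0.28 (SE 0.15). In the rest of the family 3 of 8 were higher. Ins2 differed by 0.25 (SE 0.08), but its levels, 5.02 to 5.41, were close to the lower quartile of the arrays (5.11 to 5.16), which leaves the size uncertain. Igfbpl1 differed by 0.38 (SE 0.17), Ide, an insulin-degrading protease, by -0.06 (SE 0.06) and Igf2bp3, an RNA-binding protein, by -0.05 (SE 0.07). None of the genes from Plagl1 to Igf2bp3 passed the test over all genes.

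**Figure D4:**
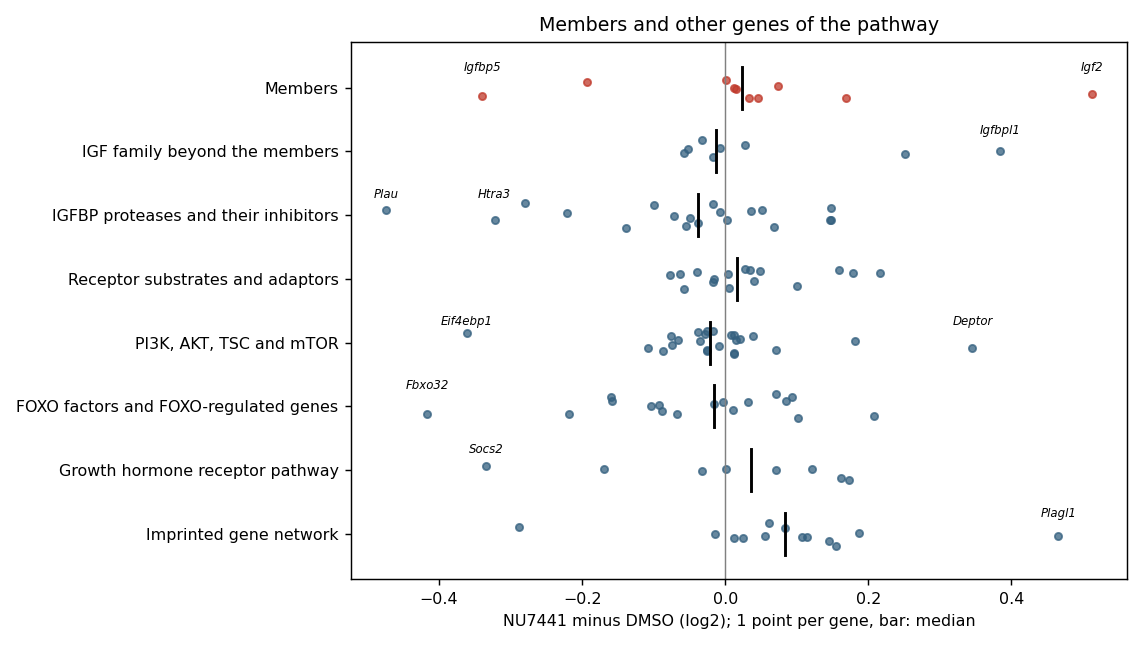
Log2 difference, NU7441 minus DMSO, of the 10 genes of the axis and of the measured genes of the 7 pathway lists, a point for each gene and a bar for the median, with names for the largest differences. Igf2 at 0.51 and Plagl1 at 0.47 are the highest points, and Plau at -0.47 is the lowest.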

How the data were processed

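Gene expression was measured on 6 biotin-labelled Affymetrix arrays of total RNA, 3 with NU7441 and 3 with DMSO. The authors deposited 1 log2 value per probe set and array, the scale being read from the values. How they were summarised and normalized is not given in the sources used here. Of 41345 probe sets, 23521 had 1 symbol in the platform annotation, 1814 several and 16010 none here. Per gene the probe set of highest mean was kept, leaving 22180 genes, with no filter on level.

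Differences, NU7441 minus DMSO, were tested two-sided over all genes with limma 3.58.1 (R 4.3.3), fitting group alone by lmFit and moderating by eBayes, with Benjamini-Hochberg adjustment and a threshold of 0.05. The test was tried on simulated data. Members, lists, alternatives and the rule for named genes (all members, up to 4 genes of smallest p per list, and the nearest patterns) were chosen with earlier results of these data known. The pattern of the arrays numbered 3 was noticed in these data, and leaving out both of them, and the promoter motifs, were chosen after seeing the data. Same-numbered arrays deviated together from their group means (r = 0.149, 0.169 and 0.339 over genes, at most 0.094 for other pairs). This was taken as pairing in the block alternatives, though no label states it, and the main fit has no term for it. Deviations from a group mean sum to 0, so the values of the other pairs are not independent of those of same-numbered arrays. Alternatives were the replicate number as a block, quantile or median normalization, a variance trend with a robust prior, filters on dim genes, averaged probe sets, array weights and leaving out arrays. 0 columns of other samples were present. The number of arrays limits the precision. Figures were drawn with matplotlib 3.10.9.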

Additional observations from a re-analysis of the deposited data

How the results depend on the processing

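The 10 differences were recomputed under 16 alternatives, giving 159 values, of which 20 turned sign and 1 passed the threshold. The replicate block, the variance trend with a robust prior, the filters on dim genes and the averaged probe sets left each member's difference as it was. Those values could not turn sign, so the count of 159 overstates how far the signs were tried. Under the alternatives that could change a difference, Igf2, Igfbp5, Igfbp6 and Igfbp7 kept their sign. With the replicate block alone no call changed (0 members and 0 genes at an adjusted p under 0.05 in limma, with 2078 genes at an unadjusted p under 0.05). The replicate block with an intensity trend and a robust prior called 1 member, Igf2, and 100 genes, with 3 members (Igf2, Igfbp6 and Igfbp7) and 2483 genes at an unadjusted p under 0.05 in limma. Keeping the upper 50 percent of genes by level dropped Igfbp3 and gave 933 such genes of 11090 tested. That is a larger share than the 1506 of 22180 in the main fit. Leaving out both arrays numbered 3 gave 2 members at an unadjusted p under 0.05 in limma, Igf2 and Igfbp5, beside 1358 of 22180 genes. Signs turned for Igf1r with median centring (-0.016), array weights (-0.054) and without both arrays numbered 3 (-0.047), and for Igfbp2 without those (-0.021). They turned for Igfbp3 with quantile normalization (-0.0038), median centring (-0.0021) and without both arrays numbered 3 (-0.063), and for Igfbp4 with median centring (-0.0053) and without those (-0.073). Leaving out 1 array gave 0 called members, 1 to 2 members and 1174 to 1746 genes at an unadjusted p under 0.05. The differences then ran from -0.085 to 0.15 for Igf1, -0.087 to 0.056 for Igf1r, -0.019 to 0.12 for Igf2r, -0.023 to 0.12 for Igfbp2, -0.087 to 0.11 for Igfbp3 and -0.16 to 0.11 for Igfbp4. Of the list medians, that of the receptor substrates and adaptors moved by more than the spread between replicates under 11 of the 16 alternatives. That of the PI3K, AKT, TSC and mTOR genes did so under 5, and that of the growth hormone receptor pathway under 3. The rest of the IGF family did so under 2 and the proteases under 1. This spread differed by list, from 0.0054 for the substrates and adaptors to 0.052 for the FOXO list, so these counts cannot be compared between lists. The replicate block and the variance trend left all differences as they were, so they could not move a median. The cause of the changes under the other alternatives was not tested. Signal over background was not analysed here and limits what the dim Igfbp3 probe set can show.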
